A study of Rattus norvegicus with 6 samples.

Results

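Snord116 is a box C/D small nucleolar RNA (snoRNA) family that lies as a tandem array within the imprinted Prader-Willi syndrome (PWS) domain. The copies described here are the 36 genes, of 32883 in the small RNA table, whose gene name begins with Snord116, and each is named by its Ensembl identifier because all share the family name. Of these, 35 were detected (1 read or more over the 6 libraries) and 34 had reads in every control line. The gene name and not any measured value chose them.

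The libraries came from 6 clonal lines of INS-1(832/13)::mCherry, a rat insulinoma cell line that stands in for pancreatic β-cells and that also carries human INS-neoR and mouse Ins2-C-mCherry transgenes. Control lines 5-9, 2 and 16 carry a deletion of the PWS domain on the silent maternal allele only, and PWS lines 3, 19-1 and 19-4 carry deletions on both alleles. All 6 lines share the first, maternal edit, and lines 2, 16 and all PWS lines descend from line 5-9. Lines 19-1 and 19-4 are subclones of line 19, which before subcloning still held some cells with an intact paternal allele, and line 3 has a larger deletion that begins at an alternate proximal site. Every line was grown in 7.5 mM glucose and gave 1 library, so p-values measure the spread between clonal lines, of which 2 in the PWS group share an editing event.

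Box C/D snoRNAs are short RNAs with a C box near the 5′ end and a D box near the 3′ end, which together bind the proteins Snu13, Nop56, Nop58 and the methyltransferase fibrillarin (Fbl). Most guide methylation of ribosomal RNA, but no ribosomal target is known for Snord116. Its copies are cut from the introns of a long transcript made from the paternal allele only, so a cell that lacks the paternal domain is expected to lack every copy at the same time. Small deletions that remove the human array have been found in people with major features of PWS.

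To show the boxes that define this class of RNA, the primer pair that the study used to measure Snord116 is given with the C box or D box letters in capitals. The forward primer is 24 bases long and holds the C box at its positions 7 to 13, and the reverse primer, printed as its reverse complement so that it reads along the RNA, is 21 bases long and holds the D box at positions 17 to 20.
Snord116 forward primer: ggatcgATGATGAtttccaataaa
Snord116 reverse primer, reverse complement: gccactatcatcgtgaCTGAg

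Among 33469 RefSeq promoter windows of 300 bases (250 before and 50 after a gene start, assembly GRCr8), 1 window held the forward primer on either strand, while 3.42% of windows held the letters ATGATGA on either strand. That window belongs to LOC134483370, a long non-coding RNA that lies between Ube3a and Snrpn. Its last 60 bases follow, from chr1:120082753-120082812 on the minus strand, with the letters of the primer in capitals.
LOC134483370 window end: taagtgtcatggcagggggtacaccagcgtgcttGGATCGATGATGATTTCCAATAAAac

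In that assembly, 321 snoRNA genes lie between Ube3a and Snrpn. Of these, 171 are 90 to 95 bases long and 148 are 75 to 80 bases long, and 1 of the longer class covers the primer match. None carries the name Snord116 in the table used, so these genes were not matched to the 36 identifiers, and the sequences of the single copies were not used here. Near-identical copies can share reads, and how an alignment was chosen among them is not given in the sources used here, so the sum is better determined than any copy taken alone. Each of the 36 copies had the same recovered reads in both deposited tables, which differ in whether reads that fit more than 1 gene were counted.

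Depth ran from 7373691 recovered reads in PWS line 19-4 to 16480475 in PWS line 3, and control line 2 had the fewest of the control lines (7634142 reads, against 11823702 in line 5-9 and 13872493 in line 16). All 9 listed β-cell markers had reads and were tested, Mir375 and both Mir7a genes among them, and none was called between the groups. Ins2 had 22.7, 10.5 and 30.1 normalized reads in control lines and 16.0, 6.30 and 0 in PWS lines. Its log2 fold change was -2.03 ± 0.74 (SE) and that of Ins1 -0.61 ± 0.36, while Nkx6-1 went the other way (0.43 ± 0.59). The study reported lower Ins1, Ins2 and Iapp mRNA in PWS lines by RT-ddPCR, so these markers are not shown to be unchanged. Of the 10 markers of other pancreatic cells, 8 (Gcg, Ppy, Sst, Ghrl, Prss1, Cpa1, Cela1 and Krt19) had no read in any library. Those 8 are messenger RNA genes, which a small RNA library counts only as fragments, so 0 reads does not show that they were not expressed. The microRNAs of the list had a few reads. Mir217 was at 1.31 to 10.8 normalized reads in control and 1.05 to 5.27 in PWS lines, and Mir216a at 0 to 6.54 and 0 to 1.32. The neuronal marker list summed to 383 to 777 normalized reads in control and 152 to 465 in PWS lines, carried by the Mir124 genes while Rbfox3 was at 0 outside line 3, and the fibroblast and vessel list to 32.7 to 63.0 and 64.1 to 74.2. The blood list summed to 44.3 to 73.2 in control and 43.1 to 77.8 in PWS lines, and no marker of any list was called.

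The first question was how evenly the copies contribute to the family in cells with an active paternal allele. The unit is normalized reads, the reads of a gene divided by the size factor of the library, and gene length is not taken into account, so the order below is of reads and not of molecules per length. In control lines the family summed to 8804 normalized reads in line 5-9, 5557 in line 2 and 8114 in line 16. The abundance was uneven but graded: the 34 copies with reads in every control line spanned a 44.8-fold range of control means, and 14 copies lay above the even share of 2.86% that 35 equal copies would each hold.

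A group of 4 copies led the order in every control line. The most abundant, ENSRNOG00000059940, had 765 normalized reads in line 5-9, 437 in line 2 and 671 in line 16, a mean of 624 ± 169 (SD, n = 3). The copy ENSRNOG00000051811 had 708, 416 and 668 normalized reads in the same lines, a mean of 597 ± 159 (SD, n = 3). The copy ENSRNOG00000058825 had 687, 421 and 660.5, a mean of 589.6 ± 147 (SD, n = 3). Their values in each line lay close together, and ENSRNOG00000051811 and ENSRNOG00000058825 changed places in line 2. The fourth, ENSRNOG00000054305, had 635, 383 and 644 normalized reads, a mean of 554 ± 148 (SD, n = 3).

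Together these 4 copies held 31.8% of the family reads in line 5-9, 29.8% in line 2 and 32.6% in line 16, a mean of 31.4% ± 1.43 (SD, n = 3). The step from the fourth to the fifth copy, ENSRNOG00000051750, was 1.58-fold, the largest between neighbours among the first 32. ENSRNOG00000051750 had 418 normalized reads in line 5-9, 290.2 in line 2 and 343 in line 16, a mean of 350.1 ± 64.0 (SD, n = 3). Its values overlapped those of ENSRNOG00000054305 across lines, since line 2 was low for both, but its share of the family was lower in each line, from 4.22% to 5.22% against 6.89% to 7.94%.

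Below the leading group the order fell in small steps, with a median of 1.05-fold between neighbours. The 8 most abundant copies held 48.9% of the family, the 20 most abundant held 84.1%, and 24 copies were needed to reach 90%. Among the 34 tested copies, the values of neighbours overlapped in 32 of 33 pairs, and the order of a pair was the same in all 3 control lines in 10 of the 33. Taken as shares of each line's total, which removes the level of the line, neighbours were separate in 5 of 33 pairs, at ranks 4 and 5, 18 and 19, 30 and 31, 31 and 32, and 32 and 33. Ranks of neighbouring copies are therefore mostly not resolved, while the order at longer distance is: of all 561 pairs of copies, 511 (91.1%) were in the same order in all 3 control lines.

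**Figure D1:**
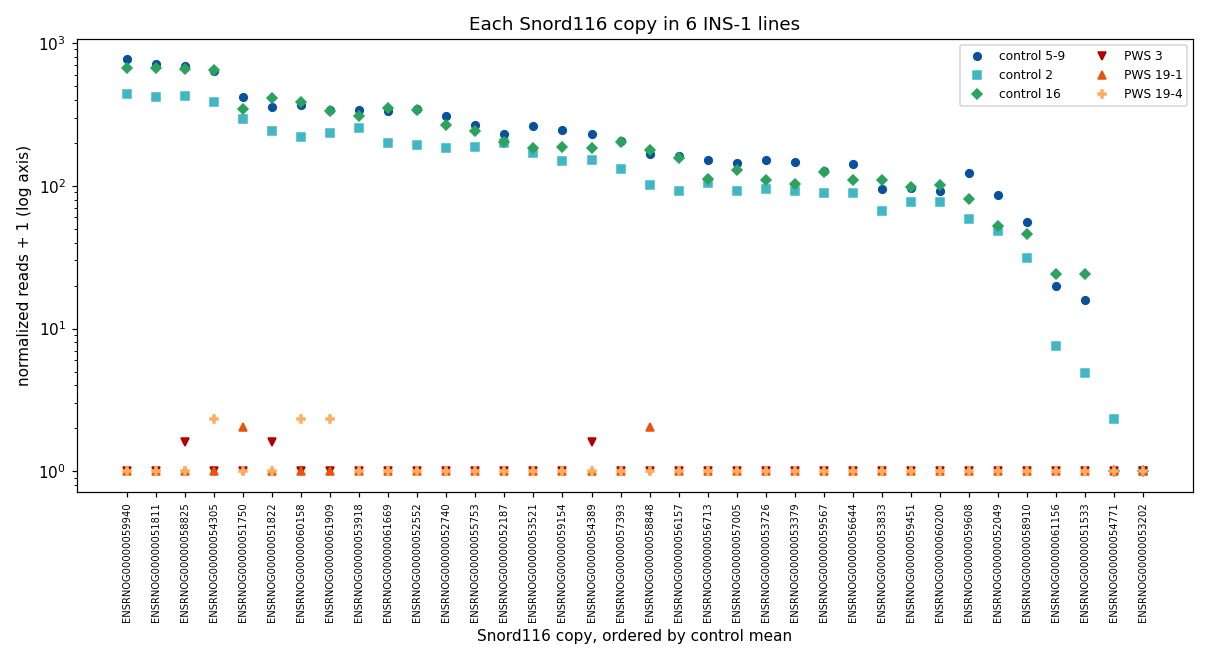
Normalized reads plus 1 (log axis) of each of the 36 Snord116 copies, ordered by control mean, with 1 symbol for each of the 3 control and 3 PWS lines. The first 4 copies stand above the rest in each control line, line 2 is the lowest control for all 34 copies tested, and the PWS lines lie at 0 or 1 read.

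At the low end, 4 copies had few reads. ENSRNOG00000052049 had 84.7 normalized reads in line 5-9, 47.1 in line 2 and 50.9 in line 16, a mean of 60.9 ± 20.7 (SD, n = 3). ENSRNOG00000058910 had 55.2, 30.1 and 44.8, a mean of 43.3 ± 12.6 (SD, n = 3). After it the level dropped 2.69-fold, the largest step among the 34 tested copies and their only neighbours whose values did not overlap. ENSRNOG00000061156 had 18.7, 6.54 and 23.1 normalized reads, a mean of 16.1 ± 8.60 (SD, n = 3). ENSRNOG00000051533 had 14.8, 3.92 and 23.1, a mean of 13.9 ± 9.64 (SD, n = 3). The values of these last 2 copies overlapped, and behind ENSRNOG00000051533 stood 15, 3 and 30 reads.

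The remaining pair was at or near 0. ENSRNOG00000054771 had 1 read, in line 2 (1.31 normalized reads), and none in the other 5 lines, and ENSRNOG00000053202 had no read in any library. A count of 0 in control line 16 allows up to 3 reads, or 2.31 normalized reads, below every tested copy in that line. In line 2, 3 reads are 3.92 normalized reads, the value of ENSRNOG00000051533 there, so that line did not separate the pair from it. Both have the family name but were under the filter of a mean of 5 normalized reads and were not tested.

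The order of the copies at long distance was alike in the control lines. Across the 34 copies with reads in every control line, Spearman's rho of the levels was 0.982 between lines 5-9 and 2, 0.977 between lines 5-9 and 16, and 0.971 between lines 2 and 16. These are descriptions across copies of 1 array, which share their library and can share reads, and not across independent samples. The rank of a copy differed by a median of 2 places between lines and by at most 5. This largest spread was reached by ENSRNOG00000053918 (ranks 9, 6 and 11 in lines 5-9, 2 and 16), ENSRNOG00000052187 (16, 11 and 14) and ENSRNOG00000053833 (29, 29 and 24). In all, 8 copies were among the first 10 in every control line.

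The share of the family was compared between lines copy by copy, with Wilson 95% intervals that cover counting error only. For 31 of the 34 copies the intervals overlapped in all pairs of control lines. The exceptions were chosen after their values were seen. ENSRNOG00000052187 held 3.55% of the family in line 2 (3.04 to 4.15%), above 2.61% in line 5-9 (2.30 to 2.96%) and 2.48% in line 16 (2.20 to 2.80%). ENSRNOG00000051822 held 5.10% in line 16 (4.69 to 5.53%) and 4.03% in line 5-9 (3.64 to 4.45%). ENSRNOG00000053521 held 2.26% in line 16 (2.00 to 2.57%) and 2.98% in line 5-9 (2.64 to 3.35%). With 1 library per line these differences have no replicate check.

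**Figure D2:**
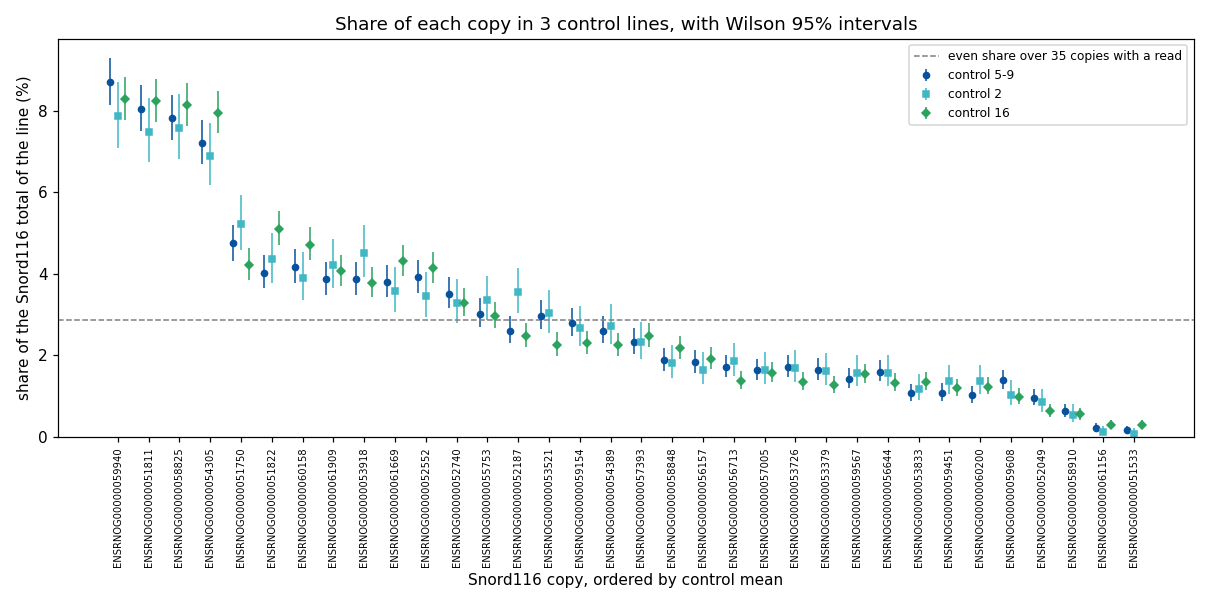
Share of each tested Snord116 copy in the family total of its line (percent), for control lines 5-9, 2 and 16, with Wilson 95% intervals for counting error and a dashed line at the even share of 2.86%. The first 4 copies lie at 6.89% to 8.69% in every line, and the interval of ENSRNOG00000052187 in line 2 lies above those of the other lines.

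The second question was whether the control lines differed in level over the copies. Line 2 was the lowest of the 3 control lines for all 34 tested copies, while line 5-9 was the highest for 24 and line 16 for 10. The median ratio of line 2 to line 5-9 was 0.621, and the 31 copies with a control mean of at least 50 normalized reads lay between 0.471 (ENSRNOG00000059608) and 0.860 (ENSRNOG00000052187). The median ratio of line 16 to line 5-9 was 0.924, from 0.601 (ENSRNOG00000052049) to 1.17 (ENSRNOG00000051822) over the same copies.

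The same count was made over other genes. Of 94 Snord genes outside the PWS domain with a control mean of at least 5 normalized reads, 40.4% were lowest in line 2, as were 38.1% of all 4292 genes tested. The median ratio of line 2 to line 5-9 was 1.01 over those 94 genes, whose 10th and 90th percentiles were 0.727 and 1.55, and 5 of them (5.32%) lay at or below the Snord116 median. Among the neighbours in the domain, 8 Snord115 copies had a median ratio of line 2 to line 5-9 of 0.567, and all 8 were lowest in line 2. The ratio was 0.864 for the 2 genes assigned to Snord64, 0.846 for Snord107 and 0.774 for 9 Mir344 genes, each between those 10th and 90th percentiles. Line 2 was the lowest control for both Snord64 genes and Snord107 and for 4 of the 9 Mir344 genes, whose median ratio of line 16 to line 5-9 was 0.764. Some listed marker sums outside the domain were as low in line 2. The summed ratio of line 2 to line 5-9 was 0.571 for the β-cell list and 0.493 for the neuronal list. It was 0.518 for the fibroblast and vessel list, beside 0.631 for the Snord116 sum. The ratio was 1.65 for the blood list and 1.59 for the other pancreatic list. The last rests on sums of only 4.92 normalized reads in line 5-9 and 7.84 in line 2. The β-cell sum is mostly Mir7a and Mir375 reads. Mir7a2 had 1264776 normalized reads in line 5-9, 623497 in line 2 and 1105213 in line 16. Mir375 fell less, with 806138, 657530 and 697051 in the same lines. Pdx1 (8.86 in line 5-9, 15.7 in line 2) and Chga (38.4 and 45.8) were higher in line 2, and the other β-cell markers were lower. Line 2 also had the fewest reads of the control lines, and the part of depth or of these markers in this order was not tested. With 1 library per clone, the line and its library cannot be told apart.

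**Figure D3:**
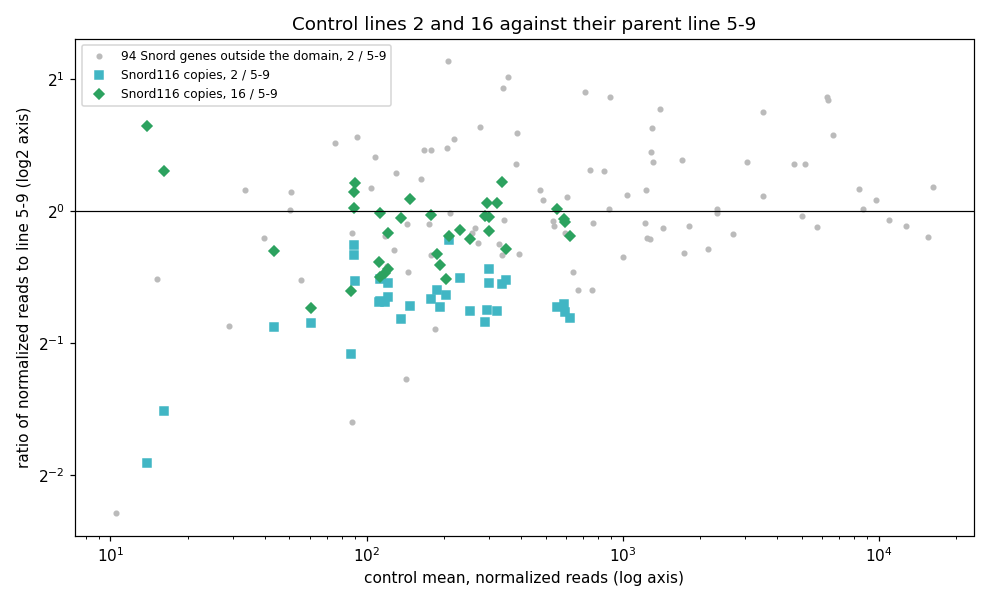
Ratio of normalized reads in control line 2 (squares) and line 16 (diamonds) to their parent line 5-9 for each tested Snord116 copy, against the control mean (log axes), with the ratio of line 2 to line 5-9 for 94 Snord genes outside the domain in grey. All line 2 squares lie below 1, with a median of 0.621, while the grey points have a median of 1.01.

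The third question was how far each copy fell when the paternal domain was deleted too, which also checks the labels. The family sum was 1.78 normalized reads in PWS line 3, 2.10 in line 19-1 and 3.96 in line 19-4, from 3, 2 and 3 reads, against 23706 reads over the control lines. The control mean was 7492 ± 1711 normalized reads and the PWS mean 2.61 ± 1.17 (SD, n = 3 each). The difference of the sum was -11.04 ± 0.31 on the log2(normalized reads + 1) scale (SE) and the limma adjusted p was 4.72e-13. The pooled reads, each group divided by its size factors, gave a level 3269-fold higher in control than in PWS lines, with an exact 95% counting interval of 1659 to 7574.

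Copy by copy, all 34 tested copies had every PWS value below every control value, as did 6.29% of all genes tested. By limma, 33 of the 34 fell at an adjusted p under 0.1. Of all 4292 genes tested, 55 (1.28%) were called lower in PWS lines, and these 33 copies are among the 55. These 34 passed the filter through their control values alone, so the filter helped to fix these counts, which are given as a description. The log2 fold changes of the 34 copies ran from -9.25 to -3.62, with a median of -7.39, and the median over all genes tested was 0.0048. On this scale the change of a copy is limited by its control level, and a single PWS read also moves it: ENSRNOG00000053918, at rank 9 with no PWS read, stood at -8.22, and ENSRNOG00000051750, at rank 5 with 1 PWS read, at -8.09.

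The leading copies had the largest differences. ENSRNOG00000059940 had no read in any PWS line and its log2 fold change was -9.25 ± 0.35 (SE; limma, adjusted p = 1.29e-11). At 3 reads over the group as the limit that a count of 0 allows, it was at least 729-fold lower in PWS lines. ENSRNOG00000051811 also had no PWS read, fell by 9.19 ± 0.35 on the log2 scale (limma adjusted p = 1.29e-11) and was at least 699.9-fold lower. Both copies were therefore under the limit of counting in all 3 PWS lines.

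Of the other tested copies, 20 had control means of 86.6 to 299.6 normalized reads and no PWS read. All of them were called, with log2 fold changes of -8.22 to -6.39. Over all 26 tested copies with no PWS read, the lower bound on the fold ran from 17.7 to 729, with a median of 139. Lower in the order, ENSRNOG00000052049 fell by 5.90 ± 0.45 on the log2 scale (limma adjusted p = 5.92e-08), at least 69.1-fold. ENSRNOG00000058910 fell by 5.43 ± 0.51 (limma adjusted p = 1.16e-06), at least 50.4-fold.

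The copies with the fewest reads were at the edge of the test. ENSRNOG00000061156, with 19, 5 and 30 control reads and none in PWS lines, fell by 3.94 ± 0.97 on the log2 scale (limma adjusted p = 0.073), at least 19.9-fold. ENSRNOG00000051533, with 48 control reads in all and none in PWS lines, had a log2 fold change of -3.62 ± 1.15 (limma adjusted p = 0.432) and was the tested copy that was not called. Its pooled counts, in which line 16 gave 30 of the 48 reads, bound it at least 17.7-fold lower, or at least 11.4-fold without line 16. Both were called by edgeR and by DESeq2 on the recovered reads, with an adjusted p of 0.000321 and 0.000269 for ENSRNOG00000051533. Leaving out control line 5-9 or line 16 ended the call of ENSRNOG00000061156 (limma adjusted p = 0.893 and 0.761). Over all alternatives tried, the adjusted p ran from 8.34e-06 to 0.893 for ENSRNOG00000061156 and from 0.000269 to 0.923 for ENSRNOG00000051533.

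The fourth question was which copies still had reads in PWS lines. There were 8 such reads in all, each on a different copy and none on the same copy in more than 1 line. Line 3 held 3 of them, line 19-1 held 2 and line 19-4 held 3. A read is worth 0.594 normalized reads in line 3, 1.05 in line 19-1 and 1.32 in line 19-4, so the larger sum in line 19-4 rests on the same number of reads as in line 3.

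In line 3 the reads lay on ENSRNOG00000058825, ENSRNOG00000051822 and ENSRNOG00000054389. ENSRNOG00000058825 had 1876 control reads and 1 PWS read, a ratio of control to PWS level of 2070 with an exact 95% counting interval of 371 to 81799. ENSRNOG00000051822 had 355 normalized reads in line 5-9, 242 in line 2 and 414 in line 16, and a ratio of 1193 (214 to 47153). ENSRNOG00000054389 had 229 normalized reads in line 5-9, 152 in line 2 and 183 in line 16, and a ratio of 647 (116 to 25581). The intervals are wide because each ratio rests on 1 PWS read.

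In line 19-1 the reads lay on ENSRNOG00000051750, with a ratio of 1203 (215 to 47545), and on ENSRNOG00000058848. The latter had 165 normalized reads in line 5-9, 101 in line 2 and 177 in line 16, and a ratio of 523 (93.4 to 20700). In line 19-4 they lay on ENSRNOG00000054305, with a ratio of 1956 (351 to 77310), on ENSRNOG00000060158 and on ENSRNOG00000061909. ENSRNOG00000060158 had 366 normalized reads in line 5-9, 217 in line 2 and 383 in line 16, and ENSRNOG00000061909 had 341, 234 and 330.2. Their ratios were 1141 (204 to 45105) and 1051 (188 to 41575). All 8 of these copies were called, with log2 fold changes of -8.95 to -6.83.

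The copies with a PWS read stood at ranks 3, 4, 5, 6, 7, 8, 17 and 19 of the control order and held 37.2% of the family in control lines. The first and second copies had none. With 1 read each, no difference between copies in what was left was detectable at this depth. A count of 3 reads in 1 PWS line, the limit that a count of 0 allows, corresponded to 0.285% to 28.4% of the control mean of a tested copy, depending on the copy and the line, and was at or below 1% in all 3 PWS lines for 4 copies.

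As a part of the control mean, the family sum was 0.0238% in line 3 (exact Poisson 95% interval 0.00490 to 0.0695%), 0.0280% in line 19-1 (0.00340 to 0.101%) and 0.0528% in line 19-4 (0.0109 to 0.154%). The mean was 0.0349% ± 0.0157 (SD, n = 3). The intervals of all 3 PWS lines overlapped, so line 3, with its larger deletion, and the subclones of line 19 were not distinguished. The source of these reads was not tested.

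Among other small RNAs of the domain, 8 of the 36 Snord115 copies with a read passed the filter, through their control values alone, and the others were not tested. These 8 were called (median log2 fold change -4.85), a count that the filter helped to fix, as was Snord107 (-7.11 ± 0.40, SE, limma adjusted p = 7.22e-10). Both genes assigned to Snord64 (median -9.07) and 7 of 9 Mir344 genes (median -4.04) were called too, but the Snord64 genes and part of the Mir344 genes were assigned from identifiers that the study had listed from these same samples, so their calls are not independent evidence of a direction. The tested Snord107, Snord64 and Mir344 genes also passed the filter through their control values alone. The filter thus helped to fix that none was higher in PWS lines, and these calls are given as a description. Of all genes tested, 1.28% were called lower, a share that includes these families. In PWS lines Snord115 had 1 read in all, Snord107 had 2, Snord64 had 0 and Mir344 had 5. Snord116 had the most reads of these families, with a control mean of 7492 normalized reads. Mir344 stood at 1470.2, the Snord64 genes at 1081, Snord115 at 275 and Snord107 at 217. Of 59 annotated Snord115 copies, 36 had a read, compared with 35 of 36 Snord116 copies.

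**Figure D4:**
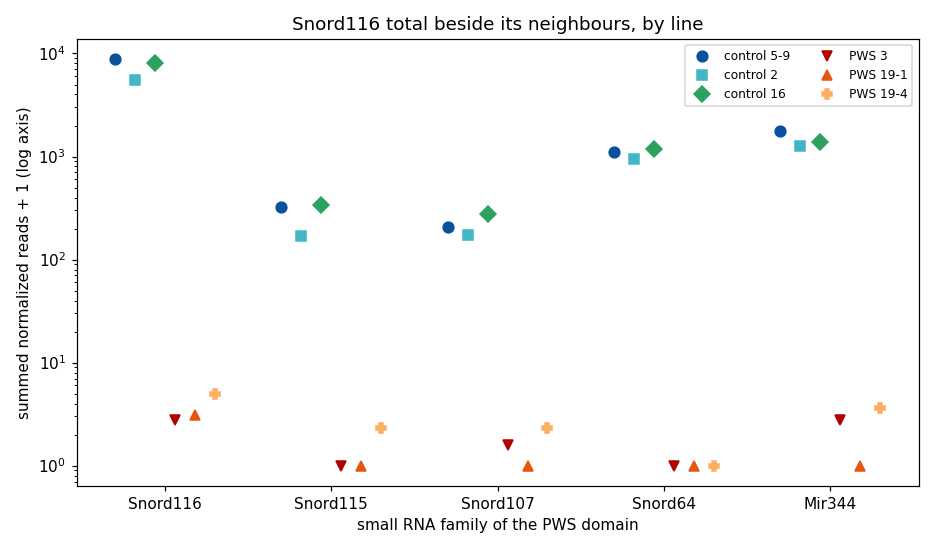
Summed normalized reads plus 1 (log axis) of Snord116 and 4 neighbouring small RNA families of the PWS domain in the 3 control and 3 PWS lines. Snord116 is the most abundant family in each control line, from 5557 to 8804, and each family is at or near 0 in every PWS line.

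Longer transcripts of the domain had few reads in these libraries. Snurf, part of the bicistronic transcript from whose promoter the Snord116 host transcript also starts, had 1.97, 5.23 and 6.17 normalized reads in control lines 5-9, 2 and 16, and Snrpn had 0.985, 2.61 and 3.09. Both were at 0 in all 3 PWS lines, but both were under the filter and were not tested. Ube3a, which encodes a ubiquitin ligase, was tested and not called (log2 fold change 0.57 ± 0.38, SE, limma adjusted p = 0.864). Among 10 genes of the box C/D particle and its assembly, 3 were tested and none was called. The core proteins Nop56 and Nop58 had log2 fold changes of 0.15 ± 0.40 and 0.44 ± 0.44 (SE), and Rrp9, which binds the U3 snoRNA, 0.21 ± 0.40. Fbl was under the filter, at 2.61 to 7.88 normalized reads in control and 3.56 to 4.20 in PWS lines, and Dkc1, of the other snoRNA class (box H/ACA), at 0 to 2.95 and 0 to 1.32.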

How the data were processed

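Small RNA libraries of 3 control and 3 PWS lines were analysed. Per the submitters' processing notes and the study's methods, reads carried unique molecular identifiers and were handled with UMI-tools 1.0.0, cutadapt 1.18, Bowtie2 2.3.4.2 and HTSeq 0.11.2 on Rnor_6.0; featureCounts is also named. The authors deposited a signal, counts divided by a DESeq2 size factor per library, in 2 tables (HTSeq option all, used here, or none). Their columns of mean signal, fold change, SE, p-value and adjusted p-value were not used. All values were whole multiples of the smallest (100% within 0.001), which gave the reads. The edgeR quasi-likelihood test on those reads called 58 genes lower and 1 higher of 4292.

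limma 3.58.1 (R 4.3.3, limma-trend, genotype only, two-sided) was run on log2(normalized reads + 1) for genes with a mean of at least 5, with Benjamini-Hochberg adjustment over all genes tested and a call at adjusted p under 0.1. The scale understates changes of low genes. The family sum was added as 1 row. The fit was tested on simulated data. Full values were given for the 5 highest and 5 lowest copies with a read, copies with a PWS read and copies not called. Members, lists and tests were chosen with earlier results of these data known; Snord64 and part of Mir344 were assigned from identifiers that the study had listed from these samples. Genomic context came from RefSeq (GRCr8), with no coordinates shared between builds. Intervals cover counting error only.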

Additional observations from a re-analysis of the deposited data

How the results depend on the processing

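Over 21 alternatives (a pseudocount of 0.5 or 5, a minimum mean of 1 or 20 or no minimum, scaling by upper quartile or TMM, edgeR, DESeq2, limma-voom, robust limma, the other table, a call at 0.05, a replicate block, lines 19-1 and 19-4 averaged, and each line left out), 32 to 34 copies were called, as was the family sum in each (log2 fold change -11.62 to -9.93). Leaving out 1 line gave 32 to 33 copies. With the replicate block 33 copies were called and the family sum was at -11.04. Same-numbered lines deviated together with correlations of 0.414, 0.218 and -0.0574 over 1087 genes, and differently numbered lines with -0.551 to 0.303. Values centred within each group depend on one another, so these correlations cannot settle whether the numbers pair the lines. The calls that varied were those of ENSRNOG00000051533 and ENSRNOG00000061156. The first was called under 5 of the 19 alternatives that tested it (pseudocount 5, both lower minimums, edgeR and DESeq2). The second was lost under 6 of 20 (pseudocount 0.5, limma-voom, robust limma, the call at 0.05, and without control replicate 1 or 3). ENSRNOG00000054771, with 1 read, was tested only without a filter and was not called. The 4 leading copies held 30.8% to 32.2% without 1 control line, and the reads left were 0.0259% to 0.0404% of the control mean without 1 line. The median ratio of line 2 to line 5-9 was 0.725 with reads scaled to library totals, 0.585 with upper-quartile scaling, 0.571 with TMM scaling and 0.567 scaled to Snord genes outside the domain, with 33, 33, 34 and 34 of 34 copies lowest in line 2. The cause was not tested. Added after seeing the data, the bound on the fold of ENSRNOG00000051533 was 11.4 to 22.0 without 1 control line. In the same way the bound was 661 to 806 for ENSRNOG00000059940, 650 to 776 for ENSRNOG00000051811 and 56.0 to 77.5 for ENSRNOG00000052049. It was 44.5 to 55.8 for ENSRNOG00000058910 and 15.3 to 24.0 for ENSRNOG00000061156. Depth limits what can be said of reads left on single copies, and 1 library per line leaves differences between control lines without a replicate check.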
